A study of Eisenia fetida with 15 samples.

Results

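The extracellular hemoglobin of the compost earthworm *Eisenia fetida* was followed through 10 unigenes, 7 for globin chains and 3 for linkers, in RNA sequenced from 15 libraries of a lindane soil test. A unigene is a contig of a transcript assembly built without a genome. The 10 were those with the highest mean FPKM (fragments scaled by transcript length and by the fragments of the library) among 29 unigenes with a globin in the name of their matched protein, of 241846 unigenes in all. Their mean FPKM over the 15 libraries, which chose them, ran from 3114 for hemoglobin chain d1 (contig_842) down to 125 for the last globin-4 unigene (contig_4722), and the next in rank, a linker L1 unigene (contig_2347), had 121. Because the members were chosen by their measured FPKM over all libraries, their abundance is a description and carries no test. All 10 matched proteins are from the earthworm *Lumbricus terrestris* and are named as chains or linkers of its blood hemoglobin, so the names fit an annelid extracellular hemoglobin. The same 10 unigenes led by median FPKM, and 9 of them led by mean read count, where the linker L4 unigene (contig_17636) took the place of contig_4722.

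Annelids carry oxygen in a giant hemoglobin that is dissolved in the blood rather than packed in red cells. Globin chains hold the heme that binds oxygen. In *L. terrestris*, globins 2, 3 and 4 are joined by disulfide bonds into a trimer, the chain d globin binds without such a bond, and linker chains, which hold no heme, tie the globin groups into one large particle.

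The worms were adults, sampled as body sections for total RNA. Soil carried a nominal 2.4 mg/kg of lindane, an organochlorine insecticide, and was freshly spiked or aged for 30 d before worms entered it for 7 d or 28 d. The labels name each of the 5 triplets of libraries in 2 ways. By the code, used here, they are control, 0d-7d, 30d-7d, 0d-28d and 30d-28d, with soil aging first and exposure next. By the treatment text the same triplets are displaced by 1 triplet: 0d-7d is 0 d of exposure, 0d-28d is 7 d in soil aged 0 d, 30d-7d is 28 d in soil aged 0 d, 30d-28d is 7 d in soil aged 30 d, and control is 28 d in soil aged 30 d. Both ways keep the same 3 libraries together, so the values of each contrast below are the same under either. What a contrast means, and which triplet is unexposed, depends on the choice. By the treatment text the contrasts with 0d-7d, and not those with control, set exposed against unexposed worms. Whether the 3 libraries come from separate worms is not stated, so the p-values reflect the variation among libraries only, which may be technical. Nor is it stated which body sections were used.

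The libraries held 13182058 to 28022746 reads. The third library of 0d-28d stood apart from the other 14. Its hemoglobin levels were far lower, the 101090 unigenes tested took 90.8% of its reads against at least 97.8% elsewhere, and unigenes named for germ line and sperm proteins took 0.458% of its reads against 0.0206% to 0.0708% elsewhere. Contrasts, the interaction and most likeness values that include it are also given without it.

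Chain d1 (contig_842, 1086 bases) was the most abundant member. In control library 2 a globin-4 unigene (contig_729) stood above it. Its FPKM was 987, 2115 and 5398 in the control libraries 1 to 3, 4917, 1368 and 8014 in 0d-7d, 5013, 2741 and 5.24 in the 0d-28d libraries, 2719.7, 3231 and 4601 in 30d-7d, and 1459, 2439 and 1708 in 30d-28d. The highest level, in 0d-7d library 3, and the second lowest outside 0d-28d library 3, in 0d-7d library 2, belonged to the same triplet. All 5 triplets overlapped in pairs except 30d-28d and 30d-7d, where each 30d-28d library lay below each 30d-7d library. In the 14 libraries other than 0d-28d library 3 this single transcript ranked between 5th and 71st of all unigenes by FPKM.

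**Figure D1:**
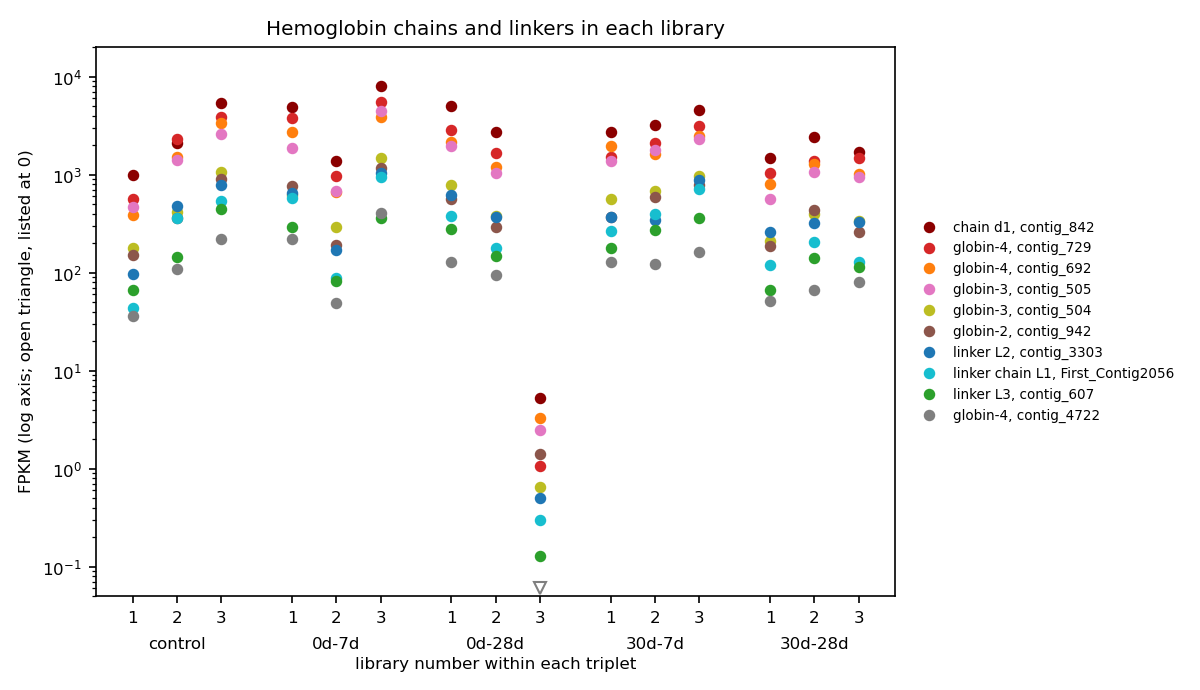
FPKM of the 10 hemoglobin unigenes (log axis) in each of the 15 libraries, by triplet; each point is 1 unigene in 1 library, and the open triangle is contig_4722, listed at 0 in 0d-28d library 3. Within a library the points keep nearly the same order, whole columns shift up and down together, and 0d-28d library 3 lies at 5.24 FPKM or less for every member.

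Among the chains of the trimer, globin-4 was the most abundant. One globin-4 unigene (contig_729, 452 bases) had 567, 2287 and 3873 FPKM in the control, 3732, 961 and 5488 in 0d-7d, 2878, 1667 and 1.06 in the 0d-28d libraries, 1513, 2101 and 3121 in 30d-7d, and 1036, 1361 and 1479 in 30d-28d. A further globin-4 unigene (contig_692, 537 bases) had 389, 1498 and 3387 FPKM in the control, 2718, 659 and 3842 in 0d-7d, 2149, 1206 and 3.29 in the 0d-28d libraries, 1972, 1615 and 2472 in 30d-7d, and 807, 1293 and 1017 in 30d-28d. Both were highest in 0d-7d library 3 and lowest, after 0d-28d library 3, in control library 1. The last globin-4 unigene (contig_4722, 484 bases) ran from 36.4 to 401 FPKM in 14 libraries and was listed at 0 in 0d-28d library 3. The level of contig_692 relative to contig_729 lay between 0.655 and 1.30 in 14 libraries, with the highest ratio in 30d-7d library 1. Reads that match several unigenes may have been split between contigs of the same name, and the handling of such reads is not given in the sources used here, so the division between them is uncertain.

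Globin-3, another partner in the trimer, was also present as a pair of unigenes. The shorter (contig_505, 443 bases) had 470.4, 1405 and 2591 FPKM in the control, 1856, 686 and 4482 in 0d-7d, 1951, 1039 and 2.47 in the 0d-28d libraries, 1359.6, 1778 and 2282 in 30d-7d, and 558, 1069.8 and 943 in 30d-28d. The longer (contig_504, 1201 bases) had 179, 417 and 1056 FPKM in the control, 623, 291 and 1478 in 0d-7d, 786, 380.4 and 0.644 in the 0d-28d libraries, 567, 679 and 957 in 30d-7d, and 212, 399.8 and 333 in 30d-28d. The ratio of the longer to the shorter stayed between 0.297 and 0.424 in 14 libraries. Globin-2 (contig_942, 1626 bases), the remaining partner, was represented by a single member. It had 149.5, 357 and 902 FPKM in the control, 772, 191 and 1163 in 0d-7d, 557, 289.9 and 1.42 in the 0d-28d libraries, 365, 585 and 780.2 in 30d-7d, and 187, 435 and 257 in 30d-28d. For globin-2 the libraries of 30d-28d and 30d-7d overlapped, since 30d-28d library 2 lay above 30d-7d library 1.

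The linkers stood below chain d1, contig_729, contig_692 and contig_505 in FPKM in each library. Linker L2 stood above globin-2 in several libraries, such as control library 2 with 474 against 357 FPKM. All 3 linkers had a higher mean FPKM than the globin-4 unigene contig_4722. Linker L2 (contig_3303, 2052 bases) had 96.9, 474 and 783 FPKM in the control, 652, 171 and 1028 in 0d-7d, 616, 369 and 0.507 in the 0d-28d libraries, 373, 348 and 883 in 30d-7d, and 258, 320.0 and 330.0 in 30d-28d. Linker L1 (First_Contig2056, 1281 bases) had 43.9, 358 and 532 FPKM in the control, 581, 88.1 and 942 in 0d-7d, 375, 179 and 0.296 in the 0d-28d libraries, 264, 399 and 709 in 30d-7d, and 118, 206 and 129 in 30d-28d. Linker L3 (contig_607, 3599 bases) had 66.1, 144 and 440.3 FPKM in the control, 294, 81.6 and 362 in 0d-7d, 281, 146 and 0.128 in the 0d-28d libraries, 180.1, 271 and 361 in 30d-7d, and 67.0, 139 and 114 in 30d-28d. L1 and L2 shared their highest library, 0d-7d library 3, with the chains, whereas L3 was highest in control library 3. After 0d-28d library 3, all 3 linkers were lowest in control library 1.

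The 10 transcripts kept a steady composition while their total varied. In the 14 libraries the summed FPKM of the members varied 9.11-fold, from 2985 in control library 1 to 27200.0 in 0d-7d library 3. Chain d1 held 23.1% to 34.0% of that sum, with a median of 29.8%. contig_729 held a median of 20.2% and at most 25.0%, contig_692 13.0% to 20.9% and contig_505 11.3% to 16.5%, and no other member passed 6.39%. On the log2 scale the SD of chain d1 over the 14 libraries was 0.88 for its level and 0.15 for its share. The same pair of SDs was 0.90 and 0.17 for contig_729, 0.94 and 0.25 for linker L2, and 0.93 and 0.25 for linker L3. Linker L1 varied most, with 1.26 for its level and 0.44 for its share, and its share ran from 1.47% to 4.34%. These shares are parts of one sum, so a larger share of one member lowers those of the rest.

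**Figure D2:**
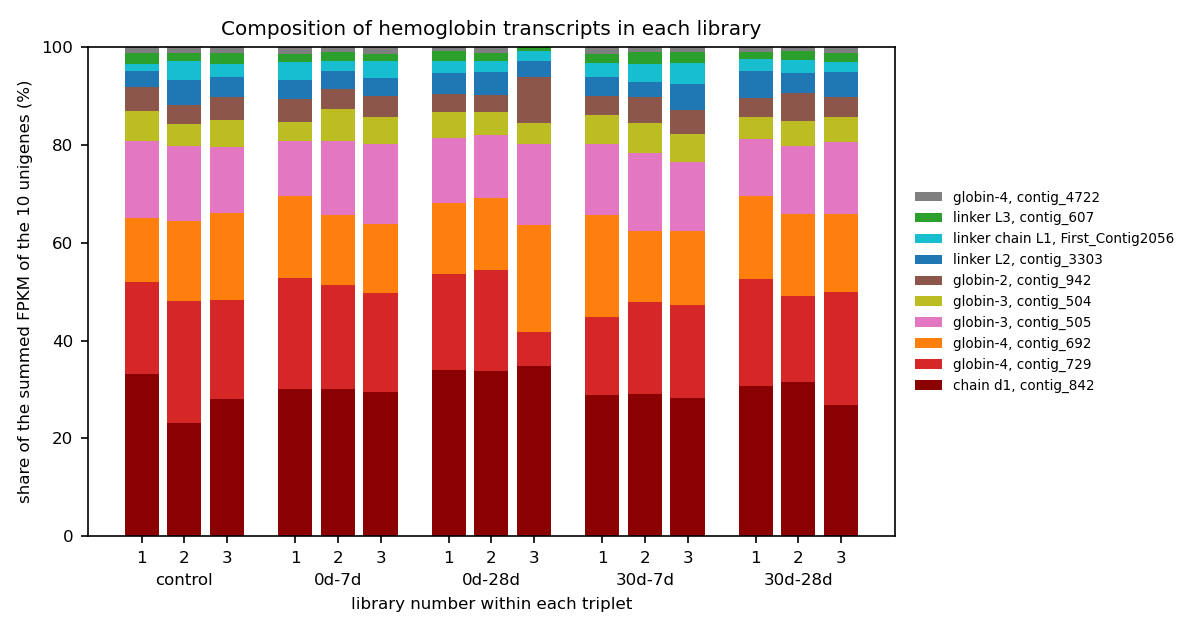
Share (%) of each of the 10 unigenes in their summed FPKM, as stacked bars for each of the 15 libraries, by triplet. Bars of 14 libraries resemble each other, with chain d1 between 23.1% and 34.0%, while the bar of 0d-28d library 3 rests on 166 reads.

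Linkers summed to between 7.45% (control library 1) and 13.6% (30d-7d library 3) of the FPKM of the 7 chains in the 14 libraries, with a median of 9.66%. The size of this share depends on how length is counted. The deposited FPKM imply lengths that differ from the full ones. The median implied length was 169 bases for contig_729 and 181 bases for contig_505, well under their full lengths. For the short unigenes contig_692 and contig_4722 it was closer to full length, at 424 and 381 bases. Chain d1 (contig_842) implied 1087 bases and contig_504 1611 bases, more than its full length. Scaled by full length instead, an alternative chosen after seeing the data, the linkers summed to 10.9% to 23.1% of the chains with a median of 14.9%. On that scale chain d1 held a median of 38.5% of the members' sum, contig_692 15.4% and contig_729 10.3%, so the order of the globin-4 pair turned while chain d1 remained first. The SD of the log2 share of chain d1 was 0.14 on that scale and that of linker L1 0.47.

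In 0d-28d library 3 the members drew 166 of 13182058 reads, or 0.00126% (95% Clopper-Pearson interval 0.00108% to 0.00147%, which covers counting error only). In the other 14 libraries they drew 0.278% (control library 1) to 1.94% (0d-7d library 3). In 0d-28d library 3 chain d1 had 71 reads and stood 30910th of all unigenes by FPKM. The lowest of the other libraries had 188 times its FPKM for chain d1, 106 times for globin-2, 191 times for linker L2, 148 times for linker L1 and 516 times for linker L3. For contig_4722, 0 reads were counted, against 274 to 2218 elsewhere. Chains and linkers were low together, and the share of each member on so few reads is imprecise, with 34.8% for chain d1 and 7.02% for contig_729.

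Other tissues' transcripts in that library did not follow a single direction. Coelomocyte (immune cell of the body cavity) proteins took 0.0507% of its reads against 0.208% to 1.15% in the other 14, with 4 of 30 tested unigenes at 0 reads. Muscle proteins took 0.150% against 0.159% to 1.13%, with 4 of 43 at 0. Gut proteins took 0.161%, within the 0.0329% to 4.16% of the others, although 41 of 105 stood at 0, and nerve proteins took 0.0466%, within 0.0317% to 0.0769%, with 3 of 75 at 0. Germ line and sperm proteins together were above every other library, as given above, with 2 of 44 at 0. PIWI1 (First_Contig345), which acts in germ cells, alone took 0.157% of the reads there. Sperm and axoneme unigenes took 0.220%, against 0.00973% to 0.0641% in the other 14. In that library 4 of the 11 tested germ line unigenes stood above their values in all 14 others. Above the median of the 14 stood 10 of them, and 1 stood below it. Of the 33 tested sperm and axoneme unigenes, 18 stood above all 14 and 3 below all of them. Above the median stood 21 and below it 12, so they did not all move one way. The part of body region or of cell makeup in the hemoglobin level was not tested. In RNA from body sections, fewer cells that make hemoglobin and less hemoglobin RNA per cell cannot be told apart.

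Several other globin-named unigenes carried the names of the same parts at lower levels. Linker L1 had further unigenes at 35.6 to 256 FPKM (contig_2347) and 12.9 to 218 FPKM (contig_5503) in the 14 libraries, and linker L4 (contig_17636) lay between 40.5 and 243 FPKM. In 0d-28d library 3 these stood at 0.763, 0.119 and 0.342 FPKM, low with the members. Further linker L2 unigenes lay lower and did not all keep step with chain d1. contig_11232 stood at 0.175 FPKM in both 0d-28d library 3 and control library 3, and at most at 21.5 elsewhere. contig_45750 was listed at 0 in 0d-28d library 3 and in 30d-7d library 3, with 10.2 in control library 3. contig_16862 was listed at 0 in 0d-28d library 3, against 0.544 to 17.7 in the other 14. A globin d1 unigene (contig_6966) whose match is from the earthworm *Glossoscolex paulistus* did not keep step with contig_842. It had 13.9, 41.9 and 59.6 FPKM in the control, 20.1, 70.8 and 41.0 in 0d-7d, 18.7, 82.1 and 0.094 in the 0d-28d libraries, 30.2, 21.2 and 148 in 30d-7d, and 51.2, 11.0 and 61.3 in 30d-28d, and its ratio to contig_842 varied 13.9-fold over 14 libraries. The intracellular globins showed no gap of that size in 0d-28d library 3. Cytoglobin-1 (contig_250) had 3.12 to 6.55 FPKM in 14 libraries and 2.25 in 0d-28d library 3, and neuroglobin (contig_99477) had 0.392 to 1.84 FPKM over all 15 and 0.899 there.

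The question the design poses is whether hemoglobin transcripts differed with lindane exposure or with soil aging. Triplet means of chain d1 were 2833 ± 2292 FPKM in the control, 4766 ± 3325 in 0d-7d, 2587 ± 2508 in the 0d-28d libraries, 3517 ± 973 in 30d-7d, and 1869 ± 509 in 30d-28d (SD, n = 3). Without library 3 the mean of 0d-28d was 3877 ± 1606 (SD, n = 2), which moves it from 4th to 2nd place. With all libraries the order 0d-7d, 30d-7d, control, 0d-28d, 30d-28d held for 8 of the 10 members. Globin-2 exchanged the last pair and linker L3 the first pair. Without 0d-28d library 3, 0d-28d stood 2nd for 2 members, 3rd for 3 and 4th for 5. The highest triplet mean was 2.04 to 3.55 times the lowest, depending on the member, and the libraries within a triplet, 0d-28d aside, spread 1.28-fold to 12.1-fold. No neighbours in this order were separated beyond their spread.

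Tested with edgeR's quasi-likelihood F test across the 5 triplets with Benjamini-Hochberg adjustment over all 101090 unigenes, 0 of the 10 members passed an adjusted p of 0.05, where 0.000989% of all unigenes did. Their unadjusted p-values lay between 0.739 and 0.933, so 0 were under 0.05, and each adjusted p was 0.99998. DESeq2 called 0 of 10 members, where it called 1.02% of all unigenes, and limma on log2(FPKM + 1) called 0 of 10, where it called 0.00594%. Without 0d-28d library 3 the unadjusted p-values of the edgeR test were 0.357 to 0.790, with a lowest adjusted p of 0.983.

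Against control, every member lay higher in 0d-7d, with a median log2 change of 0.48 and a range of 0.13 to 0.76, and 0 of 10 passed the edgeR test, where 0.000989% of all unigenes did. The SE of these changes was 1.23 to 1.42 in the fit of all 15 libraries, larger than any of them. Without 0d-28d library 3, which is in neither triplet, the SE was 0.67 to 0.91 and the changes were 0.13 to 0.76. The lowest unadjusted edgeR p was then 0.314. The direction depended on single libraries: without 0d-7d library 3, 2 of 10 lay higher with a median of -0.19, and without control library 1, 6 of 10 with a median of 0.06. Without control library 3 the median was 1.21, and without 0d-7d library 2 it was 0.89. In 30d-7d, 6 of 10 lay higher with a median of 0.23, and 0 passed against 0.000989%. That became 0 of 10 (median -0.23) without control library 1, 1 of 10 (-0.21) without 30d-7d library 3 and 10 of 10 (0.998) without control library 3; without control library 2 the median was 0.04 and without 30d-7d library 1 it was 0.44. In 30d-28d, 0 of 10 lay higher with a median of -0.76 and a range of -0.96 to -0.57, and 0 passed against 0.000989%. Without control library 3, 6 of 10 lay higher with a median of 0.11, and without control library 1 the median was -1.19. In 0d-28d, 0 of 10 lay higher with a median of -0.58, and 0 passed against 0.000989%. Without library 3 of that triplet 4 lay higher and the median was -0.03, without control library 3, 7 lay higher and it was 0.22, and without library 1 of 0d-28d the median was -1.54. Over all tested unigenes the median log2 change lay between -0.05 and 0.01 in the 10 contrasts. The 4 contrasts share the control libraries, and members rise and sink together between libraries, so 10 members on one side are not 10 separate results.

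For chain d1 the edgeR log2 change against control was 0.69 (SE 1.29, 95% interval -2.11 to 3.49) in 0d-7d and -0.60 (SE 1.29, interval -3.40 to 2.19) in 30d-28d. It was 0.19 (SE 1.28, interval -2.60 to 2.98) in 30d-7d and -0.16 (SE 1.28, interval -2.95 to 2.62) in 0d-28d. Without 0d-28d library 3 the last became 0.39 (SE 0.775, interval -1.31 to 2.09). With all 15 libraries each interval leaves room for a 4-fold change in either direction, so a difference of that size is not excluded by that fit. How large a change could be detected was not tested.

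**Figure D3:**
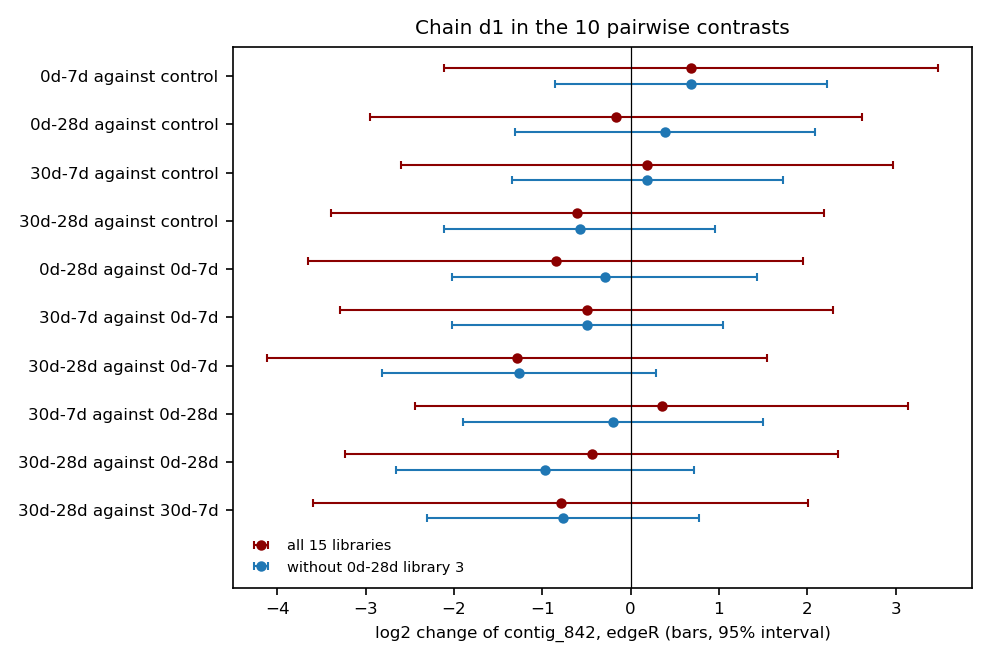
Log2 change of hemoglobin chain d1 (contig_842) in the 10 pairwise contrasts of the edgeR fit, with 95% intervals, from all 15 libraries (red) and without 0d-28d library 3 (blue). Every interval spans 0, and the blue intervals are narrower, with -2.31 to 0.77 against -3.59 to 2.01 for 30d-28d against 30d-7d.

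Among the triplets coded for exposure, 30d-28d lay below 30d-7d for all 10 members, with a median log2 change of -0.82, and 0 of 10 passed the edgeR test, where 0% of all unigenes did. In FPKM the 2 triplets did not overlap for 9 of 10 members, where 8.02% of all tested unigenes did not overlap. On counts scaled to library size by TMM (CPM) only contig_505 and linker L2 did not overlap, where 8.05% of all tested unigenes did not. On counts over the library total, with neither length correction nor TMM, 0 of 10 did not overlap, where 7.94% of all tested unigenes did not. Chain d1 had 2473, 3491 and 4981 CPM in 30d-7d and 1532, 2965 and 1831 in 30d-28d, so on that scale 30d-28d library 2 lay above 30d-7d library 1. The edgeR log2 change of chain d1 was -0.79 (SE 1.29, interval -3.59 to 2.01, unadjusted p = 0.551), and without 0d-28d library 3 it was -0.77 (SE 0.703, interval -2.31 to 0.77). The implied length of chain d1 in 30d-7d library 1 was 827 bases, the lowest of the 14 libraries, which raises its FPKM there relative to its count. The same library had the lowest implied length for every other member except contig_729. The separation in FPKM therefore leans on raised values in that library. Muscle proteins took 0.339% to 1.04% of the reads in 30d-28d and 0.209% to 0.349% in 30d-7d, coelomocyte proteins 0.241% to 0.435% and 0.374% to 0.648%, and gut proteins 0.0415% to 2.56% and 0.0485% to 2.47%. Their part in the level of the hemoglobin transcripts was not tested.

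30d-28d lay below 0d-7d with 0 of 10 higher, a median of -1.26 and a lowest unadjusted p of 0.272 in edgeR, and 0 passed where 0% of all unigenes did. Without 0d-7d library 3 the median was -0.61. Without 0d-28d library 3 the median was -1.23 and its lowest unadjusted p in edgeR 0.0591. By the treatment text this contrast sets 7 d in soil aged 30 d against 0 d of exposure. In the remaining 4 contrasts 0 of 10 members passed, where 0% of all unigenes did. 0d-28d lay below 0d-7d with a median of -1.01, which became -0.46 without library 3, -1.96 without library 1 of 0d-28d and -0.36 without 0d-7d library 3. 30d-7d lay above 0d-28d with a median of 0.65, which became 0.10 without library 3 of 0d-28d, 1.62 without its library 1 and 0.30 without 30d-7d library 3. 30d-28d lay below 0d-28d with a median of -0.22, which became -0.74 without library 3 of 0d-28d and turned to 0.79, with 10 of 10 higher, without its library 1. In limma on log2(FPKM + 1) all 10 lay higher in that contrast. In 30d-7d against 0d-7d the median was -0.32, with 1 of 10 higher. Without 0d-7d library 3 it turned to 0.37, with 8 of 10 higher, and without 0d-7d library 2 it was -0.79 and without 30d-7d library 3 it was -0.75. Apart from 30d-28d against 30d-7d, 0 members had triplets that did not overlap in FPKM. Of all tested unigenes, 8.49% did not overlap in 0d-7d against control, 10.8% in 0d-28d against control, 7.32% in 30d-7d against control and 9.29% in 30d-28d against control. Against 0d-7d that share was 11.1% with 0d-28d, 8.38% with 30d-7d and 10.4% with 30d-28d. Against 0d-28d it was 8.99% with 30d-7d and 9.31% with 30d-28d. Beside shares of this size nothing is read from a count of 0 among 10 members that move together. By the code, the effect of soil aging on the change from 7 d to 28 d was tested as an interaction in edgeR, and 0 of 10 members passed, where 0% of all unigenes did, with log2 differences of -0.57 to 0.76 and a lowest unadjusted p of 0.694. Without 0d-28d library 3, 0 of 10 passed, where 0 of 115290 unigenes did, with log2 differences of -1.10 to 0.23 and a lowest unadjusted p of 0.330.

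Genes that supply heme, iron and folding to a secreted heme protein were followed as lists of protein names. Heme synthesis had 12 unigenes, 6 of them tested, and 0 passed in either direction in the F test or in any of the 10 edgeR contrasts. At most 0.000989% of all unigenes passed in any of these comparisons. Beside that share nothing is read from a count of 0 in this list or in those below. Its rate-limiting enzyme in animals, 5-aminolevulinate synthase (contig_9778), had 17.9 to 100.1 FPKM and 29.7 in 0d-28d library 3. Delta-aminolevulinic acid dehydratase (contig_44068), the next enzyme, had 4.15 to 11.8 FPKM, and ferrochelatase (contig_95850), which inserts iron into the ring, had 6.63 to 12.3 FPKM, with 5.08 and 9.75 in 0d-28d library 3. All of these lay within the range of the other libraries where the globins did not. As a description over the same 15 libraries, Spearman's rho with chain d1 was 0.42 for the synthase and -0.11 for ferrochelatase, and 0.45 and -0.05 without 0d-28d library 3. For the dehydratase it was -0.02 over the 15 libraries.

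Heme and iron handling had 22 unigenes, 14 tested, and 0 passed in either direction, where at most 0.000989% of all unigenes did. Ferritin (contig_63), the iron store, had 1078 to 2709 FPKM in 14 libraries and 544 in 0d-28d library 3. Further ferritin unigenes ran from 0.087 to 7563 FPKM (First_Contig2165) and from 0.086 to 5813 FPKM (contig_237692). Their lowest values, of 1 read each, were in 0d-28d library 3. They were near the floor in most libraries, with medians of 0.46 and 0.42 FPKM in the other 14. Over the 15 libraries, rho with chain d1 was 0.725 for contig_63, -0.31 for First_Contig2165 and -0.27 for contig_237692. The table matches all 3 to ferritin of *Eisenia andrei*. The oxygen response list had 12 unigenes, 10 tested, and 0 passed in either direction, against the same share. Hypoxia-inducible factor 1-alpha (contig_23132), the oxygen-dependent transcription factor of animals, had 3.83 to 16.4 FPKM over the 15 libraries. Unigenes named carbonic anhydrase 7, after an enzyme that hydrates carbon dioxide, had 0.068 to 69.7 FPKM (contig_76174) and 4.37 to 18.3 FPKM (contig_37512). Secretory folding had 37 unigenes, 24 tested, and 0 passed in either direction, where at most 0.000989% of all unigenes did. Calreticulin (contig_18747), a chaperone of the endoplasmic reticulum, had 70.2 to 292 FPKM, with 291 in 0d-28d library 3. Its rho with chain d1 over the 15 libraries was -0.66. Protein disulfide isomerases, enzymes that form disulfide bonds, ran from listed at 0 to 754 FPKM (contig_47361) and to 599 FPKM (contig_9499). Their rho with chain d1 was -0.30 and -0.39. The matched protein of contig_47361 is from the nematode *Necator americanus*, and whether these unigenes are transcripts of *E. fetida* was not tested.

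**Figure D4:**
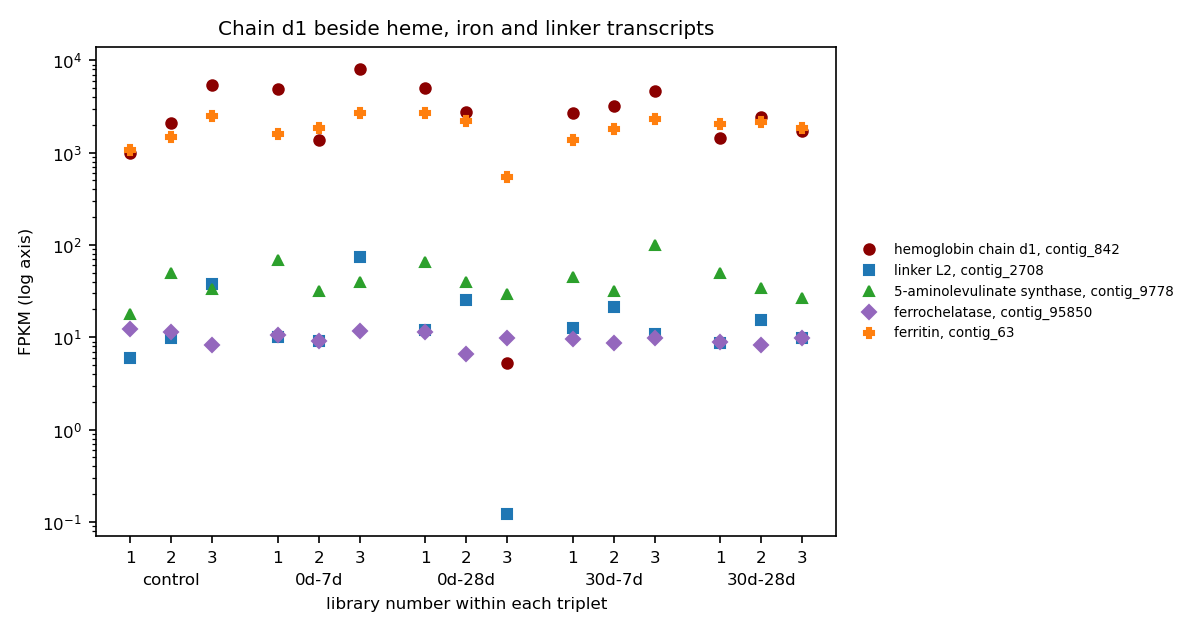
FPKM (log axis) of hemoglobin chain d1 beside linker L2 (contig_2708), 5-aminolevulinate synthase, ferrochelatase and ferritin in each of the 15 libraries, by triplet. In 0d-28d library 3 chain d1 stands at 5.24 FPKM and contig_2708 at 0.122. The synthase stands at 29.7 and ferrochelatase at 9.75, inside their ranges elsewhere. Ferritin (contig_63) stands at 544 there, below its 1078 to 2709 elsewhere.

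The pattern of chain d1 over the 15 libraries was closest to that of the other members. Spearman's rho of log2(CPM + 1), TMM-scaled, with chain d1 was 0.932 to 0.961 for the other 9 members and 0.916 to 0.952 without 0d-28d library 3. Among 3398 named unigenes outside the globin names with a mean of at least 5 FPKM, 0 reached the lowest of the members, and their median rho was -0.03. Over the 15 libraries the closest was a linker L2 unigene (contig_2708, 937 bases, rho = 0.829), whose name lacks the word that chose the others. It had 5.95, 9.79 and 38.2 FPKM in the control, 10.1, 9.16 and 73.2 in 0d-7d, 11.9, 25.3 and 0.122 in the 0d-28d libraries, 12.5, 21.1 and 10.8 in 30d-7d, and 8.71, 15.5 and 9.74 in 30d-28d. Like chain d1 it was highest in 0d-7d library 3, lowest in 0d-28d library 3 and next lowest in control library 1. Next came a peptidase of family M1 (contig_4385, rho = 0.764), a cGMP-dependent protein kinase (contig_4583, 0.757), ribosomal protein rpl5 (contig_12932, 0.757) and a pair of unigenes named SCBP2 (contig_26860, 0.754, and contig_96720, 0.743). The ranking depends on 0d-28d library 3. Without it the closest was a phosphoinositide phospholipase C (contig_11328, rho = 0.802, and 0.696 over 15 libraries), contig_2708 stood 2nd with 0.789, and the other five stood 3rd, 5th, 6th, 7th and 10th. All of these values share the 15 libraries and their depths, and ranks of single transcripts within 15 libraries are a description.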

How the data were processed

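The authors deposited 1 table with a whole-number read count and an FPKM value for each of 241846 unigenes and 15 libraries, with a protein match, per the file headers; all value columns were used. The sources used here name no assembler, aligner or counting program and do not say how reads with several matches were treated. Per the labels' protocols, RNAiso Plus extracts were purified, freed of DNA and made into standard Illumina libraries. The deposited FPKM imply lengths other than the unigene lengths, and the length correction is not stated. No genome or sequence was used.

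The deposited counts entered edgeR 4.0.16 (R 4.3.3) with TMM scaling. Unigenes were kept by filterByExpr at a total of 15 and a count of 10, and quasi-likelihood F tests were made in 1 fit of 5 triplets over 15 libraries, with 10 residual degrees of freedom and a common biological coefficient of variation of 0.923. Tests were two-sided, across the 5 triplets and in all 10 pairwise contrasts, with Benjamini-Hochberg adjustment over the 101090 unigenes tested and a threshold of 0.05. SE is the log2 change divided by the square root of F. All 10 members passed the filter, and 13 of the 19 other globin-named unigenes did. The fit was run on simulated data with known changes. A share of changes called was required there only at a spread below that of these data. That run does not measure what the contrasts here could detect. Alternatives were DESeq2 1.42.0, limma 3.58.1 on log2(FPKM + 1) and log2(FPKM + 0.1), RLE scaling, other filters, a replicate block, fits of 6 libraries and leaving out each library. Counts over the library total, and the interaction, triplet order and likeness without 0d-28d library 3, were added after seeing the data.

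Members, lists and tests were chosen with earlier results of these data known. Word edges of the list patterns were trimmed after names were seen. The text names all members, the 6 unigenes most like contig_842, the 3 most abundant of each pathway list and the globin-named unigenes nearest the limit. The unigenes contig_5503, contig_6966, contig_250, contig_99477, contig_49103, contig_11232, contig_45750, contig_16862, contig_11328, contig_57366, First_Contig3267 and First_Contig345 were chosen after their values were seen. Library numbers do not pair libraries: over 30 pairs of same-numbered libraries, deviations from triplet means correlated between -0.376 and 0.383, with 3 above 0.1.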

Additional observations from a re-analysis of the deposited data

How the results depend on the processing

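0 of 10 members passed the threshold across the triplets or in any contrast under every alternative run, with a lowest adjusted p of 0.639 (edgeR without 0d-28d library 1) and 0.679 in DESeq2. Leaving out each library in turn kept that count at 0 in each result (range 0 to 0). With the replicate block, where numbers do not pair libraries, 0 members passed, 2 of 100 log2 changes differed in sign and the lowest adjusted p was 0.905. Of the 100 log2 changes of members, 17 differed in sign in limma under either pseudocount, 17 without control library 3, 16 without 0d-7d library 3, 11 without control library 1, 10 without 0d-28d library 1 and 8 when 0d-28d library 3 was left out, and the cause was not tested. Over all unigenes, edgeR called 0 or 1 in a comparison, up to 2 without a filter on low counts or with the filter of 50 reads, and up to 3 with a library left out. Limma called 0 to 8 and DESeq2 275 to 1033, none of them a member. In limma on log2(FPKM + 1) the median log2 change of the members was -2.33 for 0d-28d against control, -3.03 for 0d-28d against 0d-7d, 3.06 for 30d-7d against 0d-28d and -0.01 for 30d-7d against 0d-7d, where edgeR had -0.58, -1.01, 0.65 and -0.32. Shares of FPKM and the order of the globin-4 pair depended on the length scaling, and the separation of 30d-28d from 30d-7d held for 9 members in FPKM, 2 in TMM-scaled CPM and 0 in counts over the library total. Each member had at least 274 reads in each of the 14 libraries. The SE on the log2 scale against control in 0d-7d was 1.23 to 1.42 with all 15 libraries. Without 0d-28d library 3 it was 0.67 to 0.91. The parts of depth and of the spread between libraries in these SEs were not tested.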

Other observations

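Ferritin and protein disulfide isomerase unigenes of the pathway lists, with unigenes of the gut and coelomocyte lists, shared a pattern that the hemoglobin transcripts did not have. A ferritin unigene (First_Contig2165) stood at 6809 FPKM in control library 2, 589 in 0d-7d library 2, 7563 in 30d-7d library 1 and 2088 in 30d-28d library 3, and at 0.087 to 1.96 FPKM in the other 11 libraries. A further ferritin unigene (contig_237692) stood at 5813, 586, 4929 and 2145 FPKM in the same 4 libraries and at 0.086 to 1.86 elsewhere. Protein disulfide isomerase unigenes were high in these 4 libraries as well, with 522, 450.4, 754 and 325 FPKM for contig_47361 and at most 37.4 elsewhere, and with 395, 599, 456 and 434 FPKM for contig_9499 and at most 36.6 elsewhere. A chitinase unigene of the gut list (contig_57366) stood at 8137, 1174, 9544 and 2493 FPKM in these 4 libraries and at most at 4.66 elsewhere. A destabilase unigene of the coelomocyte list (First_Contig3267) stood at 3812, 133, 2939 and 1274 FPKM there and at most at 1.13 elsewhere. Both count toward the read shares of those lists given above. Chain d1 (contig_842) had 2115, 1368, 2719.7 and 1708 FPKM in these 4 libraries, within its range in other libraries. The table matches the ferritin unigenes to *Eisenia andrei* and contig_47361 to the nematode *Necator americanus*, and the organism these transcripts come from was not tested. The 4 libraries belong to 4 different triplets, and these unigenes did not pass the edgeR test across triplets (adjusted p = 0.924 for First_Contig2165 and 0.99998 for contig_47361).

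A long linker L2 unigene (contig_49103, 4952 bases) was much less reduced than the members in 0d-28d library 3, with 1.32 FPKM against 2.76 to 21.3 in the other 14 libraries.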
